A study of Arabidopsis thaliana with 18 samples.

Results

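The 3 Iso-Seq libraries of the Arabidopsis thaliana mutant prl1-2 were compared with the 3 libraries of the mutant xct-2, which are 6 of the 18 libraries of the series. The members are the libraries with these 2 genotype labels. The 3 libraries of the wild type Col-0 are given as the control beside the main results. Iso-Seq reads long cDNA molecules on a PacBio instrument, so that a read can show which introns of a transcript were removed. All 3 groups were whole seedlings of the named genotype. They were kept cold for 3 days and then held at 22 °C under unbroken light (55 µmol m-2 s-1). Portions of some 60 mg, harvested at steps of 2 h through 24 h, were combined, so each library holds an average over a day. The growth protocol gives day 11 for the harvest, whereas the stage label gives 10 days. The 3 replicates of a genotype were separate biological samples according to the same protocol. The labels name the alleles prl1-2 and xct-2 and nothing further on the lines.

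PRL1 is a WD40 repeat protein of the PRP19 complex, called the MOS4-associated complex in plants, which joins the spliceosome as it is activated and stays through both steps of splicing. XCT, XAP5 CIRCADIAN TIMEKEEPER, belongs to the XAP5 family of nuclear proteins and is known in Arabidopsis for its part in the circadian clock. In the first step of splicing the 5′ site of an intron is cut and joined to the branch point, and in the second step the 3′ site is cut and the exons are joined. An intron can therefore be left in the transcript, or it can be removed with a 3′ site other than the usual one. The comparison asked which of these outcomes separated the mutants.

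The targeted genes were examined first. PRL1 (AT4G15900) had 0 reads in each of the 3 prl1-2 libraries, 13, 22 and 12 in xct-2 and 33, 26 and 10 in Col-0. Taking 3 reads as the floor of a group without reads, the level of PRL1 in prl1-2 was at least 11.2-fold lower than that in xct-2. XCT (AT2G21150) had 0, 8 and 3 reads in prl1-2, 4, 8 and 4 in xct-2 and 8, 16 and 2 in Col-0, so its total count does not check the label of xct-2. The annotated XCT intron at chr2:9065568-9065832 (TAIR10, plus strand) was used by 0 of 16 gene reads in xct-2, 10 of 11 in prl1-2 and 25 of 26 in Col-0.

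Depth was lower in prl1-2, at 459150, 688730 and 740015 gene reads, than in xct-2, at 866327, 855070 and 917839, and the Col-0 libraries had 702992 to 913488. The junction reads per gene read were 9.84, 7.85 and 9.15 in prl1-2 and 10.1, 7.53 and 10.8 in xct-2 (exact permutation test, two-sided, p = 0.7). Replicate 2 was lowest in both mutants. Replicate 2 of xct-2 also stood apart in its gene counts, which differed from those of replicates 1 and 3 with a chi-square per degree of freedom of 21.5 and 27.9, against 2.38 between replicates 1 and 3. Replicate 2 of prl1-2 also differed more, at 9.16 and 8.78 from replicates 1 and 3, against 3.99 between those. Results are also given without replicate 2 of xct-2 where it moved them. The exon bin at the start of a gene held 79.4% to 81.7% of gene reads in prl1-2 and 78.5% to 82.7% in xct-2, and the bin at the end 82.6% to 84.5% and 82.0% to 84.3%. The ranges of the mutants overlapped at both ends.

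The mutants differed in the values taken at introns. In prl1-2 a larger share of the reads on an exon bin used no junction listed for the 5′ site at its end. In xct-2 more reads were joined to unannotated 3′ sites downstream of the usual one. Over all introns, unannotated junctions took 1.10%, 0.847% and 1.05% of junction reads in prl1-2, 1.32%, 0.959% and 1.36% in xct-2 and 0.894%, 0.802% and 1.16% in Col-0, and the mutants overlapped (exact permutation test, two-sided, p = 0.3). For each 5′ site, in a measure added after the data were seen, the no-junction share was taken as the reads on the exon bin that ends there and that use none of the listed junctions of the site. This share includes reads that run into the intron, reads that stop within the exon or at its end and reads joined to a 3′ site outside the list. The counts cannot separate these. Pooled over 34126 5′ sites it was 5.91%, 5.66% and 6.05% in prl1-2, 3.47%, 3.81% and 3.16% in xct-2 and 3.00%, 2.97% and 2.76% in Col-0. All 3 libraries of prl1-2 lay above those of xct-2 without overlap, and the means were 5.88% ± 0.198 and 3.48% ± 0.328 (SD, n = 3; exact permutation test, two-sided, p = 0.1, the smallest that 3 against 3 libraries allow).

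The share of reads at unannotated 3′ sites downstream of the usual site went the other way. Over 1266 such sites it was 3.04%, 2.92% and 3.15% of the junction reads of their 5′ sites in prl1-2, 6.32%, 6.58% and 6.09% in xct-2 and 2.69%, 2.71% and 2.68% in Col-0. All xct-2 libraries were above the others, with a mean of 6.33% ± 0.244 against 3.04% ± 0.113 in prl1-2 (SD, n = 3, exact permutation test, p = 0.1). A site entered with at least 20 reads over the 18 libraries. Many of these sites were nearly unread in prl1-2 and Col-0 and entered through the libraries where they are read. That choice partly fixed the direction, so this value and its p are a description only. A related library value rests on the same listed junctions and is not independent of the no-junction share, since reads joined to unlisted sites raise both. The exon bin reads minus the junction reads, per gene read, were 1.99, 1.89 and 1.97 in prl1-2, 1.70, 1.70 and 1.69 in xct-2 and 1.65, 1.63 and 1.67 in Col-0. An intron kept in a transcript and counted as an exon bin raises this difference. The 3 libraries of prl1-2 were above the other 6.

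**Figure D1:**
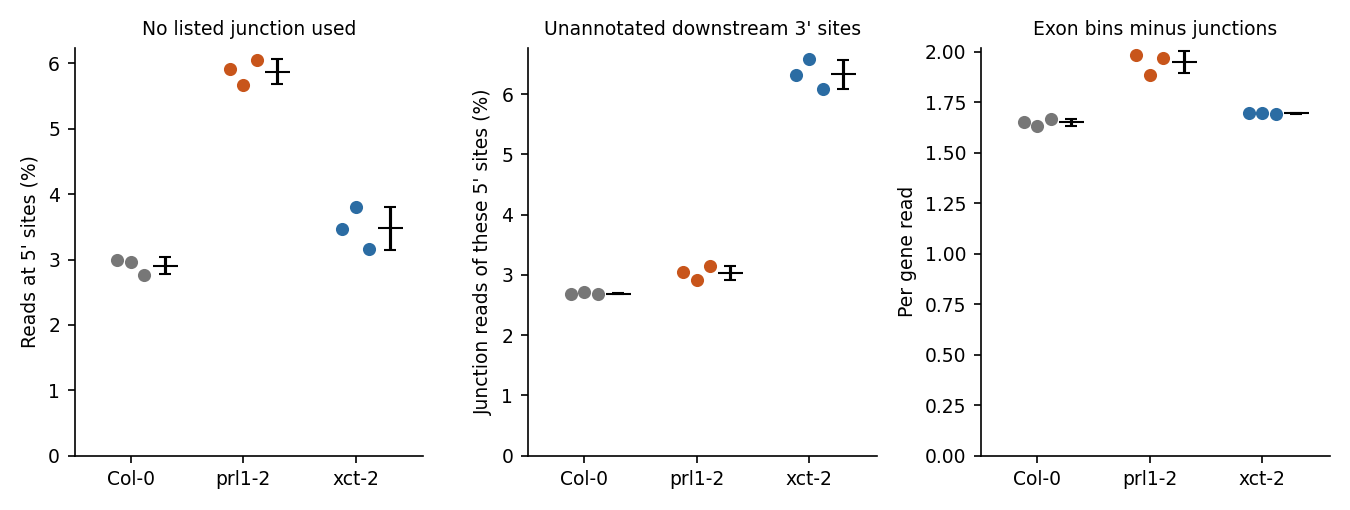
Values of single libraries for Col-0, prl1-2 and xct-2, with the mean and SD of 3 libraries as a bar with whiskers. The panels show the percent of reads at 5′ sites that use no listed junction, the percent of junction reads at unannotated downstream 3′ sites, and the exon bin reads minus junction reads per gene read. In the left panel prl1-2 lies at 5.66% to 6.05%, and in the middle one xct-2 lies at 6.09% to 6.58%. Many sites of the middle panel entered through the libraries where they are read. Sites of the left panel entered with at least 20 no-junction reads over the 18 libraries, which can favour the group with more such reads.

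The no-junction share was then tested at each 5′ site with edgeR's quasi-likelihood test, and a feature is called when its Benjamini-Hochberg adjusted p is under 0.05. Of 34126 5′ sites 8838 (25.9%) were called, of which 8373 in 3177 genes were higher in prl1-2 (24.5% of sites tested) and 465 in 404 genes were lower (1.36%). These counts share the limit on which sites entered. At 7716 of the 8373 sites the libraries of the mutants did not overlap, which a call on the same values makes likely. Overlap was not counted over all sites tested. The median no-junction share at the 8373 sites was 7.51% in prl1-2, 1.07% in xct-2 and 1.11% in Col-0. At the 465 sites it was 1.80% in prl1-2, 14.3% in xct-2 and 1.44% in Col-0. Without prl1-2 replicate 3 the count was 5867, and without xct-2 replicate 2 it was 7175.

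Many introns had small differences in the same direction. Called or not, 26991 of the 34126 sites, or 79.1%, had the higher mean in prl1-2, a share that also depends on which sites entered. Among 2480 genes with at least 5 introns tested, 1890 had at least 1 intron called higher in prl1-2, 296 had at least 1 called lower, and 492 had at least 50% of their introns called higher. With 24.5% of all sites called higher and 1.36% lower, many such genes would hold at least 1 called intron by these shares alone. The expected counts were not computed, so these counts of genes are a description only. In 4 classes of intron length the share called higher in prl1-2 was 27.0% for the shortest introns, 24.6% and 23.0% for the middle classes and 24.7% for the longest. In genes with at least 4 introns, 25.3% of the introns nearest the 5′ end of the gene, 24.8% of middle introns and 28.7% of the introns nearest the 3′ end were called higher. The median difference between the mutants at these positions was 3.33, 2.06 and 3.30 percentage points.

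The largest single differences were as follows. In MS2 (AT3G03780), a methionine synthase, the intron at chr3:957290-957577 (plus strand) had a no-junction share of 90.7%, 85.0% and 86.1% in prl1-2, 0%, 13.3% and 0% in xct-2 and 10.5%, 0% and 10.0% in Col-0. This was 131 of 150 reads in prl1-2 against 2 of 35 in xct-2 (log2 odds ratio 6.60, SE 0.897, adjusted p 1.5e-07). In IRX9-L (AT1G27600), a xylan synthesis enzyme, the intron at chr1:9604594-9605117 (minus strand) had 83.3%, 34.4% and 58.8% in prl1-2 against 0%, 1.85% and 0% in xct-2 and 10%, 5.88% and 0% in Col-0 (adjusted p 3.19e-05). All prl1-2 libraries were far above those of xct-2 in both genes, but they spread widely in IRX9-L. Of the other 8 among the 10 largest differences, 7 lay in AT5G67610, AT1G01500, ATCRT1, ABCG42, AT5G37380, CBSX6 and AT3G56120. Their mean was 52.1% to 82.4% in prl1-2, 0% to 15.1% in xct-2 and 0% to 43.1% in Col-0, where it was highest in ABCG42. The last, AT5G56850, is described below with its 3′ site.

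The 5 largest differences in the other direction had xct-2 as the group apart. In AT1G20720 the share at the intron chr1:7189143-7189259 (minus strand) was 60.7%, 58.3% and 61.7% in xct-2, 3.33%, 0% and 0% in prl1-2 and 0%, 0% and 3.33% in Col-0 (adjusted p 1.58e-07). In PRMT4B (AT3G06930), an arginine methyltransferase, it was 38.9%, 78.6% and 63.6% in xct-2 against 0%, 3.23% and 0% in prl1-2 and 0%, 6.90% and 0% in Col-0 (chr3:2188236-2188497, minus strand, adjusted p 1.61e-06). DHAR3, a chloroplast dehydroascorbate reductase, had a mean of 64.6% ± 3.55 against 4.04% ± 3.51, and PDF1B, a peptide deformylase, 75.6% ± 14.6 against 6.02% ± 6.26 (SD, n = 3). AT1G52510 had 83.7% ± 5.18 in xct-2 and 24.5% ± 8.75 in prl1-2. In all 5 genes prl1-2 lay near Col-0 and xct-2 stood apart.

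**Figure D2:**
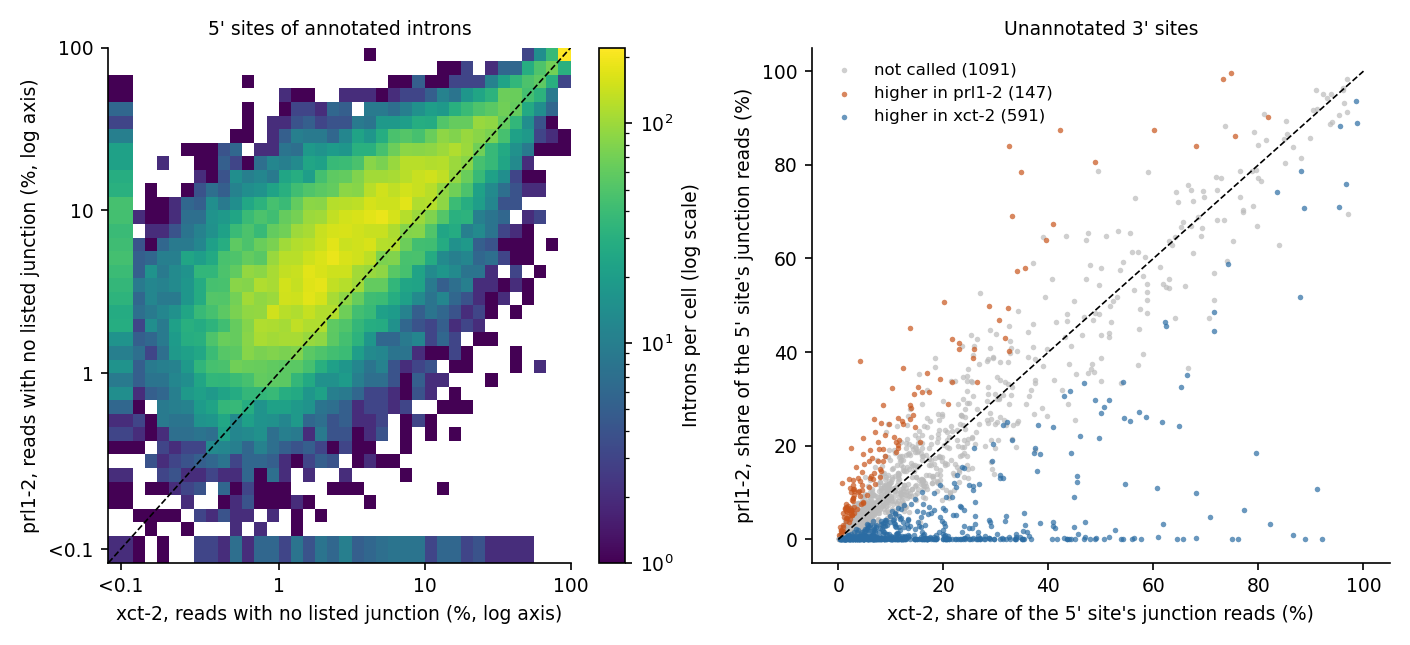
Left, mean no-junction share of 5′ sites in xct-2 (x axis) and prl1-2 (y axis) in percent on log axes, for 31144 sites with at least 30 reads in each mutant, coloured by the number of introns per cell; 80.6% lie above the dashed line of equal values. Right, mean share of junction reads at 1829 unannotated 3′ sites in percent, with 591 sites called higher in xct-2 below the line and 147 called higher in prl1-2 above it.

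Junction usage was taken as a share of all reads of the gene. Of 50590 junctions 5050 (9.98%) were called, 597 (1.18%) higher and 4453 (8.80%) lower in prl1-2. Among 46888 annotated junctions 3919 were lower in prl1-2, with a median usage of 89.0% in prl1-2, 98.1% in xct-2 and 97.8% in Col-0. A smaller set of 517 annotated junctions was higher in prl1-2, with a median of 94.0% in prl1-2, 70.0% in xct-2 and 95.3% in Col-0. Among 3702 unannotated junctions 534 were lower in prl1-2, with medians of 0.179%, 11.1% and 0.165%. In each of these 3 sets 1 mutant had a median near that of Col-0. Introns nearest the 3′ end were called lower in prl1-2 more often, at 12.5%, than those nearest the 5′ end, at 7.34%. The difference between these shares was not tested. The median difference in usage did not follow these shares. It was -3.54 percentage points nearest the 5′ end, -2.05 in the middle and -2.97 nearest the 3′ end. In CRK18 (AT4G23260), a receptor-like kinase, the annotated intron at chr4:12168685-12168769 (minus strand) was used by 95.1%, 98.4% and 93.8% of gene reads in prl1-2, 17.4%, 17.1% and 12.2% in xct-2 and 89.7%, 87.0% and 87.0% in Col-0 (log2 odds ratio 6.87, SE 0.570, adjusted p 2.66e-08). The other junctions with the largest differences were in AT1G52510, CAT2, PDF1B, HDA15, ABCB26 and TOP3A, at introns described elsewhere in the text for their 5′ or 3′ sites. The count of 5050 became 3132 or 2431 when prl1-2 replicate 1 or 3 was left out. It became 2879, 4282 or 2533 when xct-2 replicate 1, 2 or 3 was left out.

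Introns that the annotation itself lists as retained give a further measure, since an exon bin with the coordinates of the intron counts reads on it. The count is not limited to reads that span the intron. Reads that start or end inside it, or that are joined to a 3′ site inside it, may be included. Retention was the share of such a bin in its own reads plus the junction reads of its 5′ site. Of 822 introns 138 (16.8%) were called, 130 (15.8%) higher in prl1-2 and 8 (0.973%) lower. The 130 had a median retention of 16.4% in prl1-2, 3.93% in xct-2 and 4.27% in Col-0. Those 8 had 43.8% in prl1-2, 78.0% in xct-2 and 57.3% in Col-0. Pooled over all 822, where a few deeply read introns carry most of the weight, retention was 37.1%, 32.8% and 37.2% in prl1-2, 34.8%, 30.2% and 34.6% in xct-2 and 29.7%, 28.5% and 34.1% in Col-0, and the mutants overlapped (exact permutation test, p = 0.3). The prl1-2 library was higher in each of the 3 same-numbered pairs, by a mean of 2.50 percentage points (paired exact permutation test, p = 0.25, the smallest it can give). With each of 470 well-read introns given the same weight the mean was 41.0% ± 1.62 in prl1-2 and 35.6% ± 1.02 in xct-2 (SD, n = 3; exact permutation test, p = 0.1). The count of 138 was 85 without prl1-2 replicate 3 and 91 without xct-2 replicate 3.

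The retained introns higher in prl1-2 included a chromatin gene and a transcription factor gene. In SUVH9 (AT4G13460), a SET domain protein of RNA-directed DNA methylation, the intron at chr4:7826742-7826853 (minus strand) was retained in 67.4%, 70.1% and 61.8% of reads in prl1-2, 29.9%, 41.8% and 33.7% in xct-2 and 35%, 27.5% and 25.9% in Col-0. This was 125 of 188 reads against 81 of 233 (log2 odds ratio 1.88, SE 0.357, adjusted p 2.52e-05). The prl1-2 libraries were above all others, and xct-2 was close to Col-0. In the transcription factor gene GATA5 (AT5G66320) the intron at chr5:26497329-26497653 (minus strand) was retained in 42.9%, 48.0% and 42.3% in prl1-2 in 0%, 17.6% and 0% in xct-2 and in 5.88%, 0% and 0% in Col-0 (adjusted p 0.00359). In BCA4 (AT1G70410), a carbonic anhydrase, the intron at chr1:26536518-26536603 (minus strand) had 58.3%, 41.2% and 53.5% against 15.4%, 11.8% and 25% in xct-2 and 8.70%, 7.69% and 0% in Col-0 (adjusted p 0.00363, and 0.157 without xct-2 replicate 2). AT2G35330, AT2G44500, AT5G55550, AT3G11720, AT3G59210 and ABCI15 completed the 10 with the largest differences besides LNK2, with means of 33.1% to 83.1% in prl1-2 and 3.09% to 55.7% in xct-2. Of these 6, AT2G35330 and AT2G44500 kept the call without any 1 library. In Col-0 the 6 had means of 1.63% to 70.7%. Col-0 lay well between the mutants in AT3G11720 (52.1%) and AT3G59210 (70.7%).

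Retention was higher in xct-2 at the 8 introns counted above. In SNG1 (AT2G22990), a sinapoyltransferase, the intron of 71 bases at chr2:9786512-9786582 (plus strand) was retained in 17.9%, 14.4% and 24.4% of reads in prl1-2, 45.1%, 47.7% and 42.5% in xct-2 and 10.2%, 6.97% and 16.2% in Col-0 (log2 odds ratio -1.83, SE 0.291, adjusted p 7.93e-07). The xct-2 libraries stood above both other groups. In CPK28 (AT5G66210), a calcium-dependent protein kinase of immune signalling, the intron at chr5:26457109-26457213 (minus strand) had 50%, 38.3% and 47.6% in xct-2 against 0%, 15.0% and 5.88% in prl1-2 and 4.35%, 7.69% and 21.1% in Col-0 (adjusted p 0.00387, and 0.0569 without prl1-2 replicate 3). PTM, a plant homeodomain protein, had means of 44.9% ± 4.47 in xct-2 and 28.8% ± 1.59 in prl1-2, AT5G63370 had 78.6% ± 2.16 and 60.3% ± 4.17, and AT1G73430 had 97.3% ± 1.43 and 92.7% ± 2.42 (SD, n = 3).

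Choice among the 3′ sites of a 5′ site had the largest share of features called. Unannotated sites entered largely through the libraries where they are read, so this share cannot be ranked against those of other measures. Among annotated sites alone 172 of 823 (20.9%) were called. A site's share is its part of the junction reads of its 5′ site, so that a higher share at 1 site means a lower one at the others. Of 2652 sites other than the most read annotated one, 910 (34.3%) were called, 677 (25.5%) higher in xct-2 and 233 (8.79%) higher in prl1-2. Among the 1829 unannotated sites 591 in 454 genes were higher in xct-2 and 147 in 135 genes higher in prl1-2. The 591 had a median share of 11.6% in xct-2, 0.314% in prl1-2 and 0.275% in Col-0. At 565 of the 591 the libraries of the mutants did not overlap, which a call on the same values makes likely. Since overlap was not counted over all unannotated sites, no share stands beside this count and it is a description only. Leaving out single libraries gave 813 to 863 calls.

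The direction of the difference went with the position of the site. Of the 591 unannotated sites higher in xct-2, 94.1% lay downstream of the most read annotated 3′ site, at a median distance of 15 bases (quartiles 9 and 24). Of the 147 higher in prl1-2, 26.5% lay downstream, and the median was -5, that is 5 bases upstream. Of 1091 sites not called, 61.5% lay downstream at a median of 3 bases. In the class from 11 to 40 bases downstream 374 of 484 sites (77.3%) were called, 361 of them higher in xct-2, and their median share in xct-2 was 11.3% against 0% in prl1-2 and 0.0311% in Col-0. A site entered the test with at least 20 reads over the 18 libraries. These sites were nearly unread in prl1-2 and Col-0 and so entered through the libraries where they are read, and their direction was largely fixed by that choice. The same holds for much of the 591, and these counts are a description only. From 1 to 10 bases downstream 143 of 555 were higher in xct-2, and beyond 40 bases 52 of 227. From 1 to 10 bases upstream 78 of 242 were higher in prl1-2. These 78 had a median of 15.3% in prl1-2, 5.74% in xct-2 and 11.9% in Col-0. Over all 242 the medians were 18.1% in prl1-2, 11.8% in xct-2 and 13.4% in Col-0, so Col-0 lay between the mutants in both sets. The distance was a multiple of 3, which keeps the reading frame within coding sequence, for 238 of the 591 sites (40.3%), for 56 of the 147 higher in prl1-2 (38.1%) and for 29.4% of the sites not called.

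**Figure D3:**
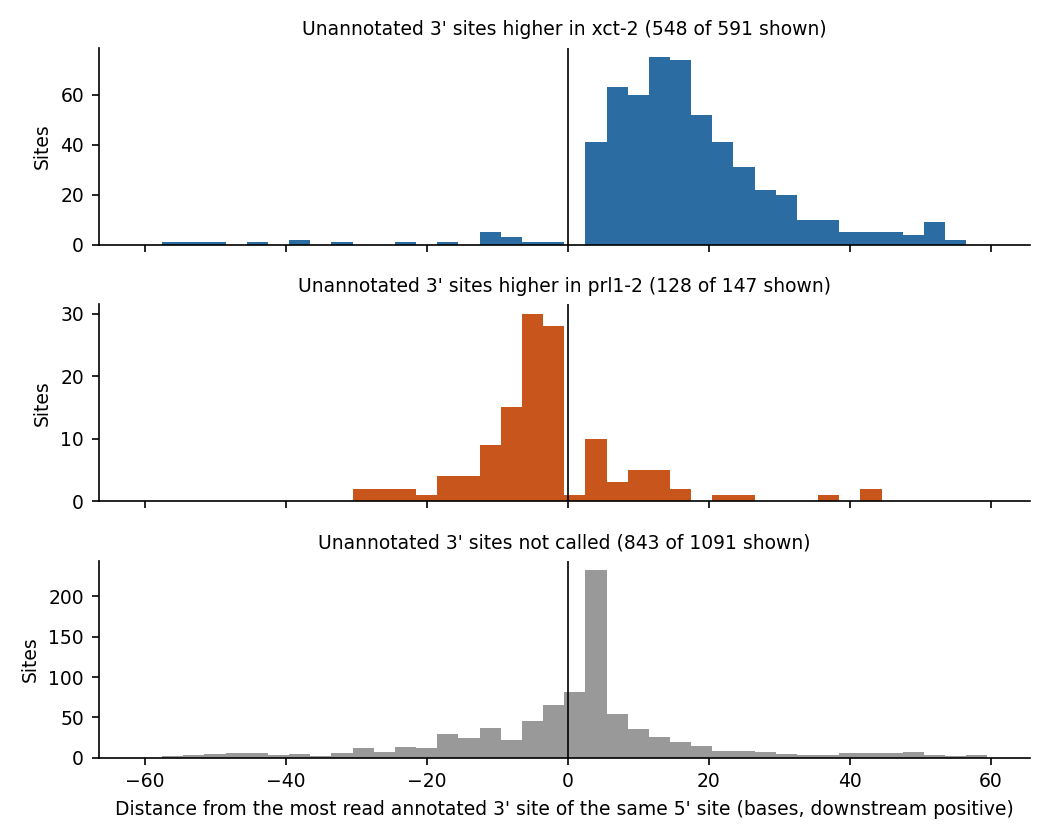
Number of unannotated 3′ sites by distance in bases from the most read annotated 3′ site of the same 5′ site, downstream positive, for sites called higher in xct-2 (top), higher in prl1-2 (middle) and not called (bottom), in steps of 3 bases up to 60 bases either way. Sites higher in xct-2 lie mostly downstream, around a median of 15 bases, and those higher in prl1-2 mostly upstream, around -5.

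The annotated alternative sites were examined in the same way. Of 823 tested, 86 were higher in each mutant. Downstream sites were higher in xct-2 in 81 cases and in prl1-2 in 22, whereas upstream sites were higher in prl1-2 in 64 cases and in xct-2 in 5. At sites exactly 3 bases upstream, the tandem acceptors in which the usual site is the second of a pair, 32 of 119 were higher in prl1-2 and 0 higher in xct-2 (42 had an unadjusted p under 0.05). The 32 had medians of 37% in prl1-2, 17.6% in xct-2 and 29.6% in Col-0. In RS41, a serine-arginine splicing factor, the site 3 bases upstream (intron chr5:21133192-21133284, plus strand) took 22.7%, 23.1% and 30.6% in prl1-2, 11.1%, 8.04% and 9.30% in xct-2 and 20.0%, 20.5% and 35.7% in Col-0 (adjusted p 0.000545). In ATG10, an enzyme of autophagy, such a site took 63.3% ± 13.7 in prl1-2 and 28.2% ± 16.6 in xct-2 (adjusted p 0.0016, and 0.0516 without xct-2 replicate 1).

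The sites with the largest differences towards xct-2 follow. In ABCB26 (AT1G70610), a chloroplast ABC transporter, the site 19 bases downstream (intron chr1:26623857-26624028, plus strand) took 67.2%, 74.1% and 63.2% in xct-2, 1.08%, 0% and 0% in prl1-2 and 0 of 484 reads in Col-0. The prl1-2 value was 1 of 324 reads and the xct-2 value 165 of 238 (adjusted p 3.08e-67). In CAT2 (AT1G58030), a cationic amino acid transporter, the site 20 bases downstream (chr1:21466418-21466511, minus strand) took 85.4%, 70.0% and 73.0% in xct-2 and 0 of 191 reads in prl1-2, which allows up to 1.57%. In Col-0 it took 0 of 321 reads. In HDA15, a histone deacetylase, the site 13 bases downstream (chr3:6363030-6363144, plus strand) took 95.7%, 75% and 76.2% in xct-2, 0%, 5.88% and 4.00% in prl1-2 and 1.72%, 0% and 0% in Col-0. AT1G52510, AT4G36515, ALDH11A3, AT5G56850, TOP3A and DFD had means of 75% to 95.8% in xct-2 and 0% to 13.5% in prl1-2, with sites 11 to 45 bases downstream. ALDH11A3, a glyceraldehyde-3-phosphate dehydrogenase, is the annotated exception among them. At AT5G56850 the no-junction share was also higher in prl1-2, at 74.2% ± 9.59 against 21.2% ± 12.9 in xct-2 and 60.6% ± 3.75 in Col-0 (SD, n = 3). With the exon bin downstream of the intron the direction turned (log2 odds ratio -2.15, adjusted p 0.0364).

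Sites higher in prl1-2 were fewer. In XDH2 (AT4G34900), a xanthine dehydrogenase, an unannotated site 64 bases downstream (chr4:16626467-16626614, minus strand) took 82.1%, 79.7% and 79.9% in prl1-2, 47.0%, 49.4% and 50.1% in xct-2 and 46.9%, 42.4% and 45.6% in Col-0 (log2 odds ratio 2.11, SE 0.25, adjusted p 5.25e-16). Here prl1-2 was the group that left the control level. In AT2G46910 a site 11 bases upstream took 38.1% ± 11.7 in prl1-2, 4.07% ± 1.5 in xct-2 and 42.1% ± 16.6 in Col-0 (SD, n = 3). In AT1G13350 an upstream site at -212 bases took 87.5% ± 3.00 in prl1-2 and 42.3% ± 11.3 in xct-2. In AT1G68935 a site 247 bases downstream took 84.1% ± 10.1 against 32.5% ± 6.83, a call that was lost against the most read annotated junction alone (adjusted p 0.412).

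Whether the same introns were involved was examined at 5′ sites with both measures. At 501 5′ sites with an unannotated 3′ site higher in xct-2, the no-junction share was higher in prl1-2 at 166 (33.1%) and lower at 24 (4.79%). At 816 5′ sites whose unannotated 3′ site was not called it was higher in prl1-2 at 31.0% and lower at 0.613%. Over all sites it was higher at 24.5%, and the difference between these shares was not tested. Only 23 introns had both an annotated retained bin and a tested unannotated 3′ site. Of these, 5 had the site higher in xct-2 and retention higher in prl1-2, 2 had the site alone (AT4G38520 and SIZ1), 3 had retention alone (AT1G05670, AT5G12150 and SUVH9) and 13 had neither. The 5 introns were in ARF2, AT1G58807, LHY, LNK2 and SUO, and they are named because they make up the whole of that count.

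LNK2 (AT3G54500), a transcriptional coactivator of the clock, had both differences at 1 intron. The intron at chr3:20178805-20178940 (minus strand) was retained in 79.7%, 63.5% and 84.6% of reads in prl1-2, 51.3%, 26.3% and 56.8% in xct-2 and 71.7%, 68.8% and 71.4% in Col-0. A site 23 bases downstream took 40.8%, 64.2% and 38.3% of the same reads in xct-2, 0%, 1.04% and 0% in prl1-2 and 0%, 1.04% and 0% in Col-0. In retention 2 of the 3 prl1-2 libraries were above all others and the 3 xct-2 libraries were below all others, and outside xct-2 the site was read in 1 library of each group. Retention differed with a log2 odds ratio of 2.00 (SE 0.368, adjusted p 1.88e-05) when all junctions of the 5′ site were the denominator. With the annotated junction alone as denominator the direction turned (-0.82, adjusted p 0.249), so the call depends on whether reads at the downstream site are counted. The same held for the no-junction share, which was higher in prl1-2 from the exon bin upstream and lower from the bin downstream (-1.88, adjusted p 0.00209).

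LHY (AT1G01060), a MYB repressor at the core of the clock, had its intron at chr1:37399-37568 (minus strand) retained in 23.8%, 19.5% and 19.8% of reads in prl1-2, 9.42%, 7.14% and 8.81% in xct-2 and 5.71%, 11.1% and 9.79% in Col-0. A site 53 bases downstream took 45.7%, 36.7% and 41.5% in xct-2 and 0% in every library of prl1-2 and Col-0. As a share of junction reads this was 259 of 573 in xct-2 and 0 of 225 in prl1-2, which allows up to 1.33% (adjusted p 2.71e-39). Here prl1-2 was above the control in retention and xct-2 alone used the site. The retention difference of 1.51 on the log2 scale (SE 0.343, adjusted p 0.00054) was 0.64 with the annotated junction alone as denominator (adjusted p 0.235). The exon bin of 26 bases that follows the intron, chr1:37373-37398, lies between the sites and was used by 89.9%, 91.5% and 88.8% of gene reads in prl1-2 against 49.6%, 54.1% and 53.0% in xct-2.

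In SUO (AT3G48050), a nuclear protein known in microRNA-mediated repression, the intron at chr3:17733984-17734063 (minus strand) was retained in 34.3%, 30.3% and 29.0% in prl1-2, 19.9%, 17.6% and 20.1% in xct-2 and 21.0%, 19.6% and 23.8% in Col-0. A site 15 bases downstream took 15.8%, 17.6% and 17.6% in xct-2 and 0% in each prl1-2 library. In ARF2 (AT5G62000), an auxin response factor, retention at chr5:24910611-24910712 (plus strand) was 15.9%, 14.3% and 13.8% against 7.60%, 7.56% and 7.50%, and a site 10 bases downstream took 0.965%, 1.55% and 1.31% in xct-2 against 0.287%, 0.358% and 0.0947%. AT1G58807 had retention of 74.9% to 78.3% in prl1-2 and 65% to 71.9% in xct-2, with a site at 1.29% to 3.89% in xct-2. With the annotated junction alone as denominator the retention call was kept in ARF2 (adjusted p 4.56e-06) and lost in SUO (0.13) and AT1G58807 (0.0857), as in LHY and LNK2.

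**Figure D4:**
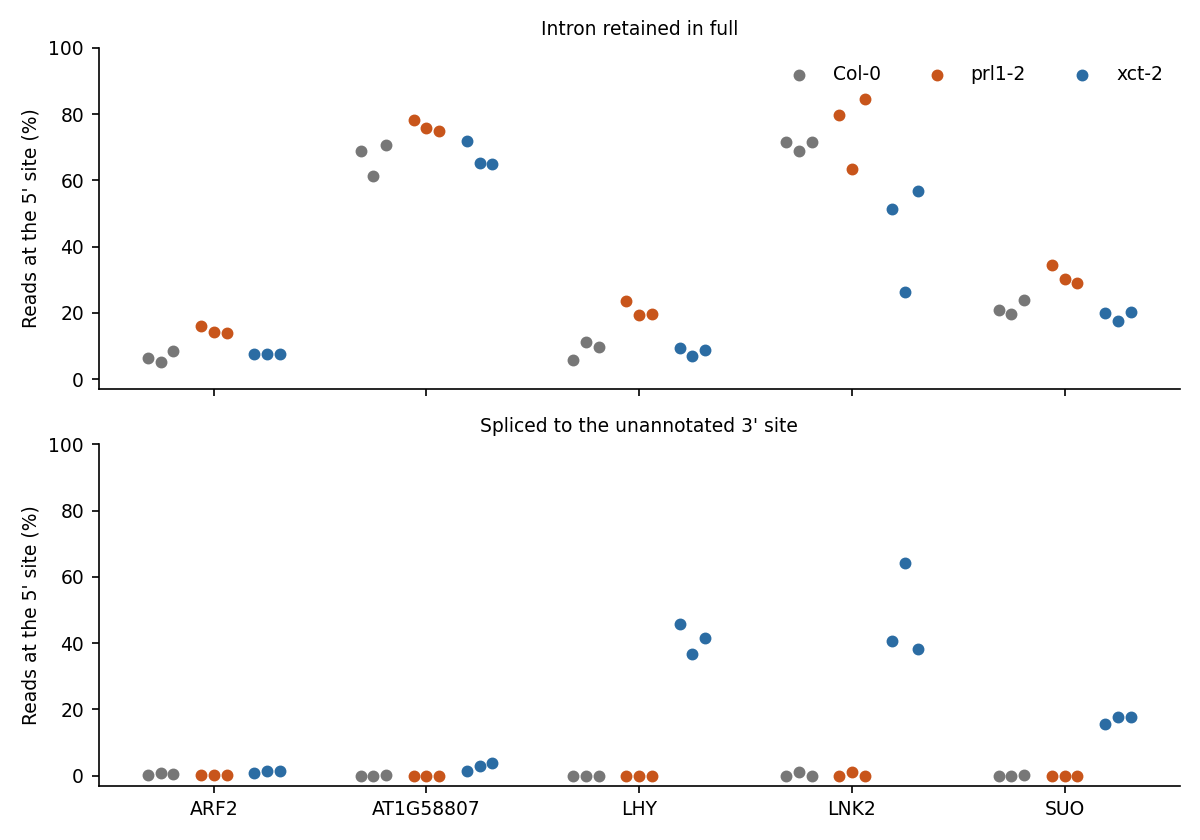
Top, percent of reads at the 5′ site that are counted on the bin of the intron, taken as retention. Bottom, percent that use its unannotated 3′ site. Points are single libraries of Col-0, prl1-2 and xct-2, for the 5 introns with both calls. The site reaches 36.7% to 45.7% in xct-2 for LHY and 38.3% to 64.2% for LNK2, and it is at or near 0 in prl1-2 and Col-0 for all 5.

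Choice of the 5′ site gave few calls. Of 1194 unannotated junctions that share an annotated 3′ site, 27 (2.26%) were called, 16 (1.34%) higher in prl1-2 and 11 (0.921%) higher in xct-2, and 160 had an unadjusted p under 0.05. The count was 16 without prl1-2 replicate 3 and 14 without xct-2 replicate 1. EMB1030 (AT5G22800), an alanyl-tRNA synthetase, used an upstream site, at -237 bases from the most read one (intron chr5:7619632-7620113, minus strand) in 62.1%, 46.0% and 61.4% of reads in xct-2, 27.8%, 21.2% and 27.6% in prl1-2 and 4.11%, 5.52% and 13.6% in Col-0, so that both mutants were above the control (adjusted p 8.82e-09). ABCB26, besides its 3′ site, used at another intron a 5′ site 11 bases downstream (chr1:26622798-26622940, plus strand) in 34.4%, 36.9% and 37.9% in xct-2 and 17.0%, 17.2% and 14.9% in prl1-2 (adjusted p 0.000647). In ACC2, an acetyl-CoA carboxylase, a 5′ site took 29.7% ± 8.61 in prl1-2, 2.83% ± 0.998 in xct-2 and 10.7% ± 2.84 in Col-0 (SD, n = 3; adjusted p 1.95e-06). XPB1, AT1G10890 and AIL6 were also among the largest differences, and each of these 3 calls was lost without at least 1 library.

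Exon bins as a share of gene reads gave few calls. Of 31056 bins 40 (0.129%) were called, 38 (0.122%) higher and 2 (0.00644%) lower in prl1-2, with 2182 at an unadjusted p under 0.05. The count was 7 to 14 when any single library was left out. PIL6 (AT3G59060), also known as the phytochrome-interacting factor PIF5, had a bin of 11 bases at chr3:21829903-21829913 (minus strand) in 57.0%, 37.9% and 46.8% of gene reads in prl1-2, 6.25%, 3.85% and 2.78% in xct-2 and 6.88%, 12.1% and 12.7% in Col-0 (adjusted p 0.00401). In AT2G39280 a bin of 15 bases was in 86.9% ± 2.21 of reads in prl1-2, 34.2% ± 8.67 in xct-2 and 77.1% ± 5.75 in Col-0. In PRMT4A, a paralog of PRMT4B, a bin of 6 bases was in 94.4% ± 3.13, 47.9% ± 12.1 and 91.9% ± 3.05 (SD, n = 3). In both bins xct-2 was the group apart. In FRO3 (AT1G23020), a mitochondrial ferric chelate reductase, a bin of 79 bases at chr1:8153452-8153530 (minus strand) was in 16.8%, 7.69% and 23.0% in prl1-2, 90.8%, 63.3% and 78.8% in xct-2 and 80.8%, 58.4% and 84.9% in Col-0. There prl1-2 was the group apart (adjusted p 0.00705, and 0.0518 to 0.0668 without prl1-2 replicate 2, xct-2 replicate 1 or xct-2 replicate 3).

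Gene levels were tested on the gene counts. Of 10810 genes 87 (0.805%) were called, 35 (0.324%) higher and 52 (0.481%) lower in prl1-2, and 1040 had an unadjusted p under 0.05. With the replicate number as a block 154 were called, 67 higher and 87 lower. Leaving out prl1-2 replicates 1, 2 or 3 gave 36, 34 or 22 calls. Leaving out xct-2 replicates gave 55, 50 or 74. With the junction reads per gene read as a covariate 1142 were called, 618 higher and 524 lower. In whole seedlings fewer cells of a type and less RNA per cell cannot be told apart.

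Among the genes higher in prl1-2 were 3 related transcription factors of the iron deficiency response. BHLH100 was at 81.7, 78.3 and 137.2 CPM, the counts scaled to a common library size, in prl1-2, 1.26, 0 and 0 in xct-2 and 2.78, 2.34 and 1.68 in Col-0 (log2 fold change 7.58, SE 0.834, adjusted p 0.000299). bHLH38 was at 50.8, 124.6 and 61.6 CPM against 1.26, 1.71 and 1.30 in xct-2 and 0, 2.34 and 0 in Col-0 (adjusted p 0.000337). bHLH39 was at 28.7, 101.5 and 41.0 CPM against 0, 1.71 and 0 in xct-2 and 0, 3.51 and 0 in Col-0 (adjusted p 0.00529, and 0.052 without prl1-2 replicate 2). All prl1-2 libraries were above all those of xct-2 and Col-0 in these genes, and replicate 2 was highest for bHLH38 and bHLH39. AT1G62420 had 19, 42 and 26 reads in prl1-2 and 0 in each xct-2 and Col-0 library, so that it was at least 40.5-fold higher in prl1-2 than in xct-2 against the same floor of 3 reads. AT4G36700 was at 73.8 ± 14.0 CPM against 0.285 ± 0.494, and ICL, isocitrate lyase of the glyoxylate cycle, at 15.4 ± 6.18 against 0.285 ± 0.494 (SD, n = 3). EXT13, an extensin of the cell wall, was at 39.8, 34.2 and 39.8 CPM against 5.05, 0.856 and 3.91, and AT5G06630, AT5G04960 and AT1G03990 were at 16.9 to 31.1 CPM against 0 to 1.85.

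PRL1 and 9 other genes had the largest changes towards lower levels in prl1-2. HSPRO2 (AT2G40000), known from defence and from binding the SnRK1 kinase, was at 4.42, 5.51 and 8.98 CPM in prl1-2, 88.4, 153.3 and 70.3 in xct-2 and 49.0, 14.1 and 70.4 in Col-0 (log2 fold change -3.98, SE 0.563, adjusted p 0.00149). DIC2, a mitochondrial dicarboxylate carrier, was at 2.21, 5.51 and 0 CPM against 49.2, 135.3 and 30 in xct-2 and 10.2, 1.17 and 36.9 in Col-0 (adjusted p 0.0288, and 0.0716 to 0.195 without xct-2 replicate 2 or any 1 library of prl1-2). RRTF1, a redox-responsive transcription factor, had 0 reads in prl1-2 6, 38 and 3 in xct-2 and 1, 0 and 1 in Col-0 (adjusted p 0.0284, and 0.0707 to 0.152 without xct-2 replicate 2 or any 1 library of prl1-2). There prl1-2 was near Col-0 and xct-2 was the group apart. Replicate 2 was the highest xct-2 library in 8 of these 9 genes, AT4G29780 being the exception. Of the 20 genes named for the largest changes, 7 kept the call without any 1 library and 13 lost it without at least 1. AT1G72910 was at 3.00 ± 1.59 CPM against 39.7 ± 12, with 14.0 ± 6.13 in Col-0 (SD, n = 3; adjusted p 0.00173). CYP707A3, an abscisic acid hydroxylase, AT4G29780, AT1G07135, LpxC2 and AT1G18740 had means of 0.428 to 1.90 CPM in prl1-2 and 15.2 to 33.6 in xct-2. In Col-0 CYP707A3 was at 3.07 ± 1.71 and AT1G18740 at 5.50 ± 2.55 CPM (SD, n = 3), nearer to prl1-2 than to xct-2, and the other 3 had means of 7.54 to 10.1.

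**Figure D5:**
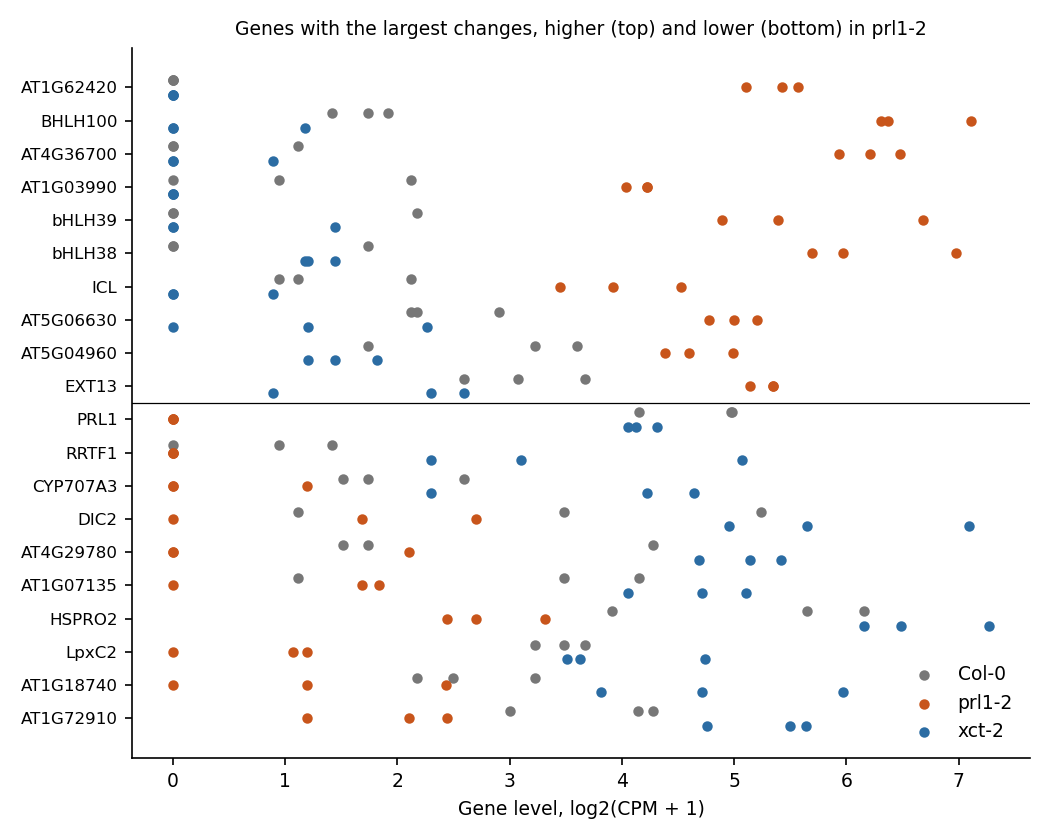
Level of the 10 genes with the largest change in each direction, as log2(CPM + 1) per library on the x axis, for Col-0, prl1-2 and xct-2; the line separates genes higher (top) from genes lower (bottom) in prl1-2. The prl1-2 libraries of BHLH100 (78.3 to 137.2 CPM) stand apart from both other groups, while PRL1 has 0 reads in prl1-2.

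The lists that follow were chosen with earlier results of these data known. Of the 12 listed genes of the PRP19 complex 9 were tested for level, and PRL1 was the only one called. CDC5, a MYB protein at its core, had a no-junction share at chr1:3164163-3164394 (plus strand) of 5.43%, 7.38% and 8.26% in prl1-2 against 1.69%, 2.26% and 1.52% in xct-2 and 1.34%, 1.12% and 2.78% in Col-0 (adjusted p 0.00867), 1 of 14 tested sites in the list, with 0 higher in xct-2. The list's median difference was 0.476 percentage points against 2.46 over all sites, of which 24.5% were higher in prl1-2 and 1.36% lower. Of 17 factors of 3′ site recognition and the second step, 16 were tested for level and edgeR called 0, with 1 at an unadjusted p under 0.05 and 0 called by DESeq2. In this list 30 of 85 5′ sites in 8 genes had a higher no-junction share in prl1-2 and 0 a lower one, beside 24.5% and 1.36% of all sites. The median difference in this list was 1.41 points.

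PRP17, a second-step factor, had 32.5%, 16.9% and 25% at chr1:3491567-3491950 (minus strand) in prl1-2, 4.88%, 0% and 0% in xct-2 and 0%, 1.75% and 0% in Col-0 (adjusted p 7.78e-05). SF1, the branch point binding protein, had 38.5%, 33.1% and 46.3% against 15.7%, 16.1% and 13.9% in xct-2 and 17.9%, 27.9% and 13.1% in Col-0 at chr5:20849264-20849844 (minus strand, adjusted p 0.000132, and 0.498 from the bin downstream). CLO, a GTPase of the U5 particle, had 7.80% ± 1.75 against 0.733% ± 0.610, and U2AF65B, a subunit of the 3′ site binding factor U2AF, 14.3% ± 1.41 against 2.57% ± 0.980 (SD, n = 3). CLO and U2AF65A each had 1 annotated 3′ site called. In U2AF65A the site 173 bases downstream took 62.5%, 54.1% and 59.1% in prl1-2 against 32.7%, 35.9% and 41.9% in xct-2 (adjusted p 0.0243, and 0.0589 to 0.088 without prl1-2 replicate 2 or 3 or xct-2 replicate 1 or 2).

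Of 20 serine-arginine splicing factors 17 were tested for level and edgeR called 0, with 0 at an unadjusted p under 0.05 and 0 called by DESeq2. They had 8 of 41 5′ sites with a higher no-junction share in prl1-2, in 5 genes, and 3 with a lower one, with a median difference of 6.35 points. Over all sites 24.5% were higher and 1.36% lower. RS40 was at 71.4%, 18.2% and 28.6% in prl1-2 and 12.5%, 1.41% and 0% in xct-2 (chr4:13027130-13027209, plus strand, adjusted p 0.0108, 0.195 without xct-2 replicate 2 and 0.0791 without prl1-2 replicate 1). RS41 had a site with the opposite direction, 63.6%, 45.2% and 47.6% in prl1-2 against 87.5%, 71.9% and 86.2% in xct-2 and 67.4%, 75% and 75% in Col-0 (chr5:21131888-21132086, plus strand, adjusted p 0.0205, and 0.124 from the bin downstream). The call was also lost, at adjusted p 0.0713 to 0.0909, without prl1-2 replicate 2 or 3 or xct-2 replicate 1 or 3. In SR45 the annotated 3′ site 21 bases downstream took 20.6%, 10.9% and 20.7% in prl1-2, 30.8%, 32.5% and 55.6% in xct-2 and 22.6%, 20.5% and 19.4% in Col-0 (adjusted p 0.00229, and 0.0792 without prl1-2 replicate 2).

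Of 24 listed genes of the circadian clock 21 were tested for level and edgeR called 0, with 5 at an unadjusted p under 0.05 and 0 called by DESeq2, with a median log2 fold change of 0.05 against 0.00 over all genes. At 34 of 122 5′ sites, in 11 genes, the no-junction share was higher in prl1-2, and at 2 it was lower, with a median difference of 1.35 points, where 24.5% of all sites were higher and 1.36% lower. PRR5, a repressor of the clock, had 43.8%, 38.9% and 29.2% at chr5:8357539-8357693 (minus strand) in prl1-2, 0%, 2.86% and 0% in xct-2 and 2.56%, 6.67% and 5.56% in Col-0 (adjusted p 0.000144). PRR7, its relative, had 53.8%, 55.5% and 49.5% in prl1-2, 20.2%, 25.7% and 24.1% in xct-2 and 39.4%, 40.2% and 42.3% in Col-0 (chr5:640756-640888, minus strand, adjusted p 6.03e-05), so that the mutants lay on opposite sides of the control. PRR3 had 70.6%, 68.0% and 73.9% against 36.0%, 22.7% and 20.0% in xct-2 and 26.5%, 33.3% and 50% in Col-0 (chr5:24200656-24201128, minus strand, adjusted p 0.00339).

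Of 19 alternative 3′ sites in 12 clock genes, 6 in 5 genes were higher in xct-2 and 1 higher in prl1-2, where 25.5% and 8.79% of all sites tested were called in these directions. UBP13, a deubiquitinase that acts on the clock, used a site 30 bases downstream (chr3:3768304-3768410, minus strand) in 65.5%, 62.3% and 65.9% of reads in xct-2 and in 0 of 401 reads in prl1-2, which allows up to 0.748% (adjusted p 3.06e-111). TOC1, an evening repressor, used a site 61 bases downstream (chr5:24676740-24676884, plus strand) in 19.5%, 28.4% and 20.5% in xct-2 and in 0 of 141 reads in prl1-2, which allows up to 2.13% (adjusted p 4.49e-12). The sites of UBP13, LHY and TOC1 were read at most once in Col-0.

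For RNA decay and microRNA synthesis 9 genes were listed and tested for level, and edgeR called 0, with 0 at an unadjusted p under 0.05 and 0 called by DESeq2. At 38 of 96 5′ sites, in 5 genes, the no-junction share was higher in prl1-2 and at 1 lower, with a median difference of 1.26 points, and 7 of 9 alternative 3′ sites in 4 genes were higher in xct-2 with 0 higher in prl1-2. Over all sites tested 24.5% had a higher no-junction share in prl1-2, with a median difference of 2.46 points, and 25.5% of alternative 3′ sites were higher in xct-2. The 25.5% covers annotated and upstream sites too, whereas the sites named below lie 15 or 32 bases downstream. Among all unannotated sites 11 to 40 bases downstream, 361 of 484 (74.6%) were higher in xct-2. AGO1, the slicer of microRNA targets, had both: a no-junction share of 4.94%, 5.86% and 6.32% in prl1-2 against 0.164%, 0.473% and 0.0729% in xct-2 at chr1:17889217-17889684 (minus strand, adjusted p 5.72e-11), and at another intron a site 15 bases downstream at 1.74%, 2.41% and 2.22% in xct-2 against 0 of 1719 reads in prl1-2, which allows up to 0.175%. UPF1, the helicase of nonsense-mediated decay, used a site 32 bases downstream (chr5:19073925-19074036, plus strand) in 8.74%, 7.59% and 8.79% in xct-2 and in 0 of 998 reads in prl1-2, which allows up to 0.301%. DCL1, the microRNA processing enzyme, used a site 15 bases downstream in 16.9% ± 2.12 in xct-2 and in 0 of 255 reads in prl1-2. DCL1 also had the 1 site with a higher no-junction share in xct-2, 15.6%, 13.7% and 18% against 3.12%, 0% and 0.901% (chr1:27534-27617, plus strand). UPF3 had 9.52%, 11.8% and 24.2% in prl1-2 against 0%, 1.32% and 0% in xct-2 and 2.15%, 1.89% and 5.41% in Col-0, and SE, a partner of DCL1, 10.8% ± 2.75 against 3.06% ± 0.584.

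The remaining lists were small. Of the sugar and starvation list 8 of 26 5′ sites were higher in prl1-2, in DIN10 and KIN10, and 0 lower. DIN10 had 10.6%, 9.29% and 11.2% in prl1-2 against 1.33%, 2.36% and 2.49% in xct-2 (adjusted p 5.7e-06). Of the cold and abscisic acid list 3 of 15 were higher in prl1-2, in the phosphatase gene HAB1 and in the transcription factor gene ABF3, and 0 lower. HAB1 retained its intron at chr1:27392394-27392516 (plus strand) in 49.4%, 46.7% and 56.4% in prl1-2, 34.1%, 35.4% and 28.9% in xct-2 and 39.1%, 32.0% and 40.5% in Col-0 (adjusted p 0.00669, 0.0821 without prl1-2 replicate 3 and 0.0509 without xct-2 replicate 3). Of the defence list 6 of 19 were higher in prl1-2 and 0 lower, in the immune receptor gene SNC1, with 13.7% ± 2.91 against 4.39% ± 0.591, and in the salicylic acid regulator NPR1, with 15.8% ± 7.59 against 0.855% ± 1.48 (SD, n = 3), a call lost without prl1-2 replicate 3 or xct-2 replicate 2 (adjusted p 0.0595 and 0.0677). Of the 11, 8 and 6 genes of these 3 lists tested for level edgeR called 0, with 3, 2 and 3 at an unadjusted p under 0.05 and 0, 1 and 1 called by DESeq2. These counts stand beside the 24.5% of all sites with a higher no-junction share in prl1-2.

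Cell type markers were measured alongside. The 10 leaf markers summed to 6560 to 18303 CPM of gene reads in prl1-2, 3356 to 15196 in xct-2 and 4854 to 16901 in Col-0, and the 8 root markers to 1810 to 2702, 1855 to 3342 and 1773 to 3875. Of the 5 seed markers OLEO1, 2S1, CRU3 and OLEO2 had 0 reads in the 6 mutant libraries, and the sum of the list was at most 1.45 CPM of gene reads. The groups overlapped in leaf and root markers, and edgeR called 0 of the 10 leaf and 5 root genes for level, with 4 and 1 at an unadjusted p under 0.05 and 3 and 1 called by DESeq2. Of the marker introns, 7 of 15 leaf 5′ sites and 14 of 29 root 5′ sites had a higher no-junction share in prl1-2 and 0 a lower one. The median differences were 1.73 percentage points in the leaf list and 1.175 in the root list, below the 2.46 over all sites. Over all sites 24.5% were higher and 1.36% lower. Rubisco activase, RCA, had 3.90%, 1.76% and 3.69% in prl1-2 against 0.316%, 0.165% and 0.611% in xct-2 (adjusted p 1.45e-08). RBCS1A, a Rubisco small subunit with close paralogs that may share reads, had 2.57% ± 0.156 against 0.265% ± 0.260. AHA2, a proton pump of roots, had 10.6%, 7.51% and 6.90% against 0.390%, 0.362% and 0.921% (adjusted p 1.52e-09), and SCR, a root patterning factor, 18.3%, 20.0% and 17.6% against 5.00%, 4.41% and 1.61% (adjusted p 0.000924).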

How the data were processed

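Reads were whole-number counts per gene, exon bin, annotated junction and unannotated junction, deposited by the authors for each library; per the submitters' processing notes, minimap2 2.17 and the TAIR10 build were used, while the sources used here do not name the counting tool or its strand setting. No values were normalised before deposit. Features of loci that join several genes, which hold 1.43% of gene reads, have no coordinates and were left out of the junction and bin measures. Overlapping genes and close paralogs may share reads. The members, gene lists and tests were chosen with earlier results of these data known. Gene names came from the RefSeq table, which held 31527 of 32209 single-gene IDs.

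Each feature's reads were tested against the other reads of its gene, 5′ site or 3′ site with edgeR 4.0.16 (R 4.3.3, quasi-likelihood test, library terms plus 1 usage term for each genotype, all 18 libraries, at least 20 reads on each side), and gene counts with TMM scaling and filterByExpr. Benjamini-Hochberg adjustment ran over all features of a measure, with calls under 0.05. Library values were compared by exact permutation tests. Limits for a count of 0 take 3 counts of the total, and they cover counting error only. Single features were named by the largest difference of means among those whose libraries did not overlap, with at least 30 reads in each mutant; genes were named by the largest fold change with at least 10 CPM in the higher mutant, and up to 4 called members of each list per measure were taken. The no-junction share, its naming rule and the exon bin minus junction value were chosen after seeing the data. The alternatives were leaving out each library, the replicate number as a block, the 6 libraries alone, a covariate for junction reads per gene read, DESeq2 1.42.0, other count minimums, other denominators and other bins.

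The labels give the same replicate numbers to both mutants without saying what they share. The deviations of same-numbered libraries from their group means correlated over genes with 0.457, 0.773 and 0.210, which treats the numbers as pairs, although prl1-2 replicate 1 correlated more with xct-2 replicate 3 (0.509). The pairing comes from the data alone.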

Additional observations from a re-analysis of the deposited data

How the results depend on the processing

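Calls for 3′ site choice numbered 813 to 863 when single libraries were left out, and no alternative run moved that count of 910 by over 1.5 times. With DESeq2 the counts were 2125 for junction usage, 49 for retention, 5 for 5′ sites, 71 for exon bins, 3017 for the no-junction share and 188 for genes. With junction reads per gene read as a covariate they were 7771 for junction usage, 443 for exon bins and 1142 for genes, of which 618 were higher in prl1-2. With the 6 libraries alone they were 21 for exon bins and 14 for genes. Exon bins gave 78 calls at 40 reads on each side and 94 with a library offset, and genes gave 175 without the filter on low counts, 44 of them higher in prl1-2. The replicate block gave 154 genes (67 higher, 87 lower) and moved no other count of calls by over 1.5 times. For library values, a paired exact permutation test cannot go below p = 0.25, and 3 against 2 libraries not below 0.2.

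Leaving out single libraries gave 2431 to 4282 calls for junction usage, 85 to 109 for retention, 14 to 26 for 5′ sites, 7 to 14 for exon bins, 5867 to 8339 for the no-junction share and 22 to 74 for genes. The difference in junction reads per gene read, prl1-2 minus xct-2, ran from -1.49 to 0.141 and turned positive without prl1-2 replicate 2 (0.0303) and without xct-2 replicate 3 (0.141). Of 2061 values of named features under alternatives, 1801 kept direction and call, 256 lost the call and 4 turned. The 4 were LNK2 retention against the annotated junction (-0.82) and, with the bin downstream of the intron, the no-junction share of AT5G56850 (-2.15), RS31 (-0.068) and LNK2 (-1.88). The cause was not tested. Of 160 named features 102 kept the call without any 1 library. At features with few reads, depth limits what can be called: prl1-2 had the fewest reads.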
